A study of Mus musculus with 15 samples.

Results

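The 37 genes described here encode glucose transporters, the enzymes of glycolysis and of the pentose phosphate pathway, the handling of pyruvate and lactate, and 6 genes of the hypoxia response. They were taken by symbol from a list of these pathways. All 37 were among the 24451 genes of the count table and all 37 were among the 14600 genes with enough counts to be tested. They divide into 2 glucose transporters, 10 genes of upper glycolysis, 6 of lower glycolysis, 6 of lactate and pyruvate, 7 of the pentose phosphate pathway and 6 of hypoxia. RNA was sequenced from ES-R1, a line of mouse embryonic stem cells, grown in DMEM without serum but with N2 and B27 and sampled in 4 days of differentiation. The 5 groups, each of 3 libraries, were control siRNA alone, control siRNA with 25 ng/ml of Activin A, control siRNA with the inhibitor SB, Vprbp siRNA alone, and Vprbp siRNA with the same Activin A. All groups carried an siRNA, no group combined Vprbp siRNA with SB, and all came from 1 cell line. The inhibitor is written SB431524 in the titles and SB431542 in the series text, with no dose stated. Nothing in the labels says whether replicates came from separate cultures, so the p-values below cover only spread among these libraries, and that spread may be technical.

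Glycolysis breaks glucose down to pyruvate, which is either oxidised in mitochondria or reduced to lactate and exported. Phosphofructokinase commits sugar to this route, and the pentose phosphate pathway leaves it before that step to make NADPH and ribose, its non-oxidative branch returning carbon through transketolase. Pluripotent stem cells are known for high glycolytic flux. The hypoxia-inducible factors, of which Hif1a encodes an oxygen-regulated subunit, drive many glycolytic genes together with Bnip3, Egln3, P4ha1 and Vegfa. Activin A signals through the receptor ALK4 to Smad2 and Smad3, SB inhibits ALK4 and related receptors, and Vprbp is a substrate receptor of a CRL4 ubiquitin ligase.

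Promoters are shown for the 5 genes on which the results turn most. These are Egln3, Bnip3, Slc16a3 and Ldha, which differed widely between Activin and SB but also among untreated libraries, and Tkt, which had the smallest p of the 37 between Activin and SB. Each runs from 250 bases before to 50 bases after the first RefSeq transcript start, on GRCm38.p6, in the direction of the gene. Capitals mark ACGTG, the core of the hypoxia response element, and GCGTG, its other form, on either strand. The Egln3 promoter lies at chr12:54203825-54204124 on the minus strand, Bnip3 at chr7:138909457-138909756 on the minus strand, Slc16a3 at chr11:120948817-120949116 on the plus strand, Ldha at chr7:46845554-46845853 on the plus strand and Tkt at chr14:30548881-30549180 on the plus strand.
Egln3: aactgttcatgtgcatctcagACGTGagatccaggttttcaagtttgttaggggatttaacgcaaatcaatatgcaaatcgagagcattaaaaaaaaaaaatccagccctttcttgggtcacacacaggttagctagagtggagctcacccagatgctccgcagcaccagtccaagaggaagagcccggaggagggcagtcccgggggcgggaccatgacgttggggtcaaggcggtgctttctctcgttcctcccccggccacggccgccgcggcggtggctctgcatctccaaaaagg
Bnip3: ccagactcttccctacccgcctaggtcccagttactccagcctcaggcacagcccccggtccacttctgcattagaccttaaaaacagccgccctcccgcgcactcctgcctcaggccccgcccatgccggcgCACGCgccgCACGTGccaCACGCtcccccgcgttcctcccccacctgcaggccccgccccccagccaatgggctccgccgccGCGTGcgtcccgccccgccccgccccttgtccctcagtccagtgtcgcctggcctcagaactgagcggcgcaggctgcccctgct
Slc16a3: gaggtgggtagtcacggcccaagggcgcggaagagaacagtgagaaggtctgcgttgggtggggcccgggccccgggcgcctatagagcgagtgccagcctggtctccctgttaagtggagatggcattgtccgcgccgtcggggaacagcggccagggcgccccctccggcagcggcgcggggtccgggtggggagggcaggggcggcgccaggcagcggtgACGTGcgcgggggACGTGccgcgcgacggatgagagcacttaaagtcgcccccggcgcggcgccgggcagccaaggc
Ldha: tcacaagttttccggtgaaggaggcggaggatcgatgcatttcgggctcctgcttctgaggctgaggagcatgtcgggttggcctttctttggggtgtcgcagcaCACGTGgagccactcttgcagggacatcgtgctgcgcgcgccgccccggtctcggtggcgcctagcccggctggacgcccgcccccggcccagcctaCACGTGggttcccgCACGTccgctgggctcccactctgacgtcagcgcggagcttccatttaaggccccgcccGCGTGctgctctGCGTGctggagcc
Tkt: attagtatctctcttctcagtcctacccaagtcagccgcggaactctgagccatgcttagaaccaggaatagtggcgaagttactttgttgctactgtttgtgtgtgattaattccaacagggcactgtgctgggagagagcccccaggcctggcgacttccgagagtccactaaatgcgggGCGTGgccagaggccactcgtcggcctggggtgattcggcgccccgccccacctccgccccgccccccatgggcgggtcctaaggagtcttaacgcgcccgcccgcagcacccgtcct

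A promoter was found in the RefSeq table for 36 of the 37 genes. ACGTG was present on either strand in 18 of the 36 promoters (50%), compared with 25.4% of the 11013 promoters of tested genes and 19.7% of all 27025 promoters. GCGTG was present in 22 of 36 (61.1%) against 51.2% of tested genes, and the E-box CACGTG, which contains ACGTG, in 5 of 36 (13.9%) against 10.2%. Split by the comparison of Activin with SB below, ACGTG stood in 11 of the 19 promoters of genes called higher with Activin, in 1 of the 4 called lower and in 6 of the 13 with no call. GCGTG stood in 10 of the 19, 2 of the 4 and 10 of the 13, and either motif in 15, 3 and 11. Over the 36 promoters either motif stood in 29 (80.6%), against 62.6% of tested genes. Only the first transcript start was used, and 11 of these genes have more than 1. These are matches of letters in a window, with no test.

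Libraries held 11.1 to 15.5 M (M, mega) counts assigned to genes, and values are counts per M (CPM) on scaled library sizes. Taking 3 counts as the limit, a gene with no count could still be at 0.193 to 0.269 CPM, for counting error only. Vprbp itself was at 173, 167 and 173 CPM with control siRNA and 121, 132 and 114 with Vprbp siRNA, so its RNA was lowered but not removed (log2 fold change -0.49 ± 0.06, edgeR adjusted p = 0.00205). Lefty1, a target of Activin signalling, was at 253, 239 and 272 CPM with Activin and 1.38, 1.81 and 1.503 with SB. The pluripotency gene Pou5f1 was present in all 15 libraries, at 700.2 ± 36.1 CPM (SD, n = 3) with control siRNA alone and 364 ± 27.9 with SB. In both untreated groups, with control siRNA and with Vprbp siRNA, replicate 3 stood apart from replicates 1 and 2 in the direction of the SB libraries, at 15.6 and 7.27 on principal component 1. Replicate 1 of Vprbp siRNA with Activin stood apart on component 2, at -35.0. Results that rest on these 3 libraries are given with and without them.

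Of the 37 genes, 4 share much of their sequence with other genes. Of the 50-base windows of the longest GENCODE transcript, 82.5% for Gapdh, 72.2% for Eno1, 68% for Pgk1 and 41.5% for Pgam1 also occur in other genes. Gapdh windows were found in 218 other genes, 215 of them annotated as pseudogenes, and Eno1 windows in 9, of which 8 are pseudogenes. Per length, the levels of these 4 with control siRNA alone were 2.22, 0.833, 9.34 and 4.83 reads per kilobase and M counts (RPKM), well below the 560.8 RPKM of Aldoa and 316.6 of Pkm. Eno1b, a near-copy that holds 70.5% of the Eno1 windows, was at 140.2, 128 and 123 CPM, compared with 4.34, 5.58 and 3.52 CPM for Eno1 (Eno1b is named after its values were seen). The read length is not stated, and reads of the 4 genes may have been split or dropped, so their values are uncertain. Pkm (34.4%), Ldhb (27%), Bnip3 (21.9%), Gpi1 (19.3%), Ldha (16.6%), Aldoa (13.5%) and Taldo1 (10.9%) also share some windows.

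**Figure D1:**
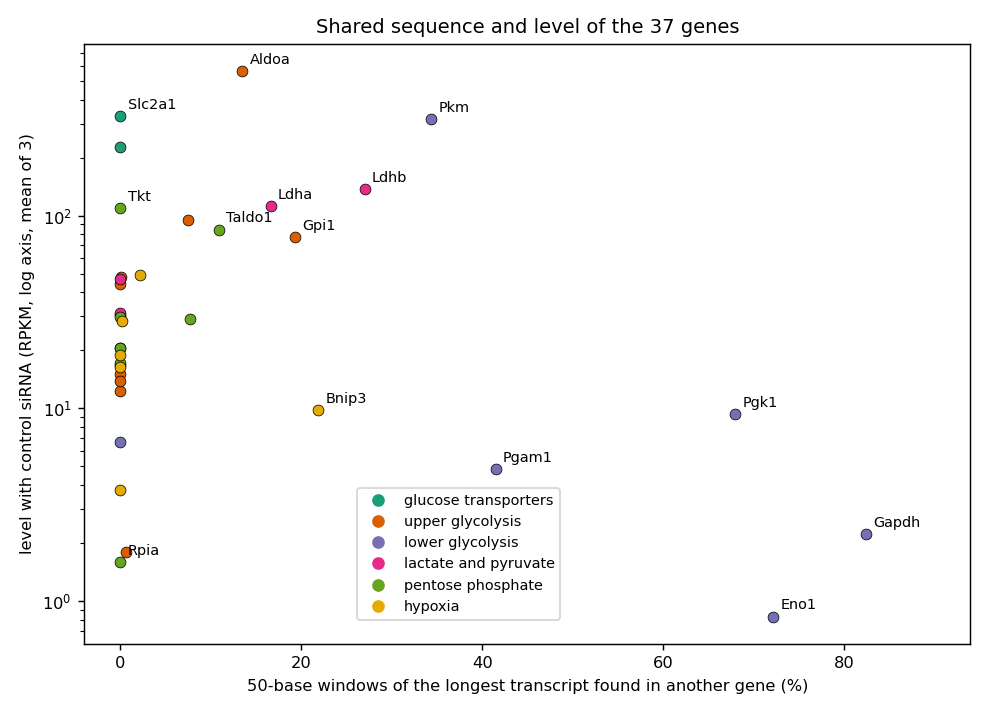
Level of each gene with control siRNA alone (RPKM, log axis, mean of 3 libraries) against the percentage of 50-base windows of its longest transcript found in another gene, coloured by role. Gapdh (82.5%, 2.22 RPKM) and Eno1 (72.2%, 0.833 RPKM) lie at the lower right, apart from Aldoa (13.5%, 560.8 RPKM).

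Activin was set against SB in control siRNA cells first, since these groups have the pathway driven and the pathway inhibited and share no library. Of the 37 genes, 19 were higher with Activin, 4 were lower and 14 were not called, by the quasi-likelihood test of edgeR at an adjusted p below 0.05 (Benjamini-Hochberg, over all genes tested). Over all 14600 genes 38.0% were called in this comparison, 19.0% higher and 19.0% lower. The median log2 fold change was 0.284 over the 37 genes and -0.002 over all genes. The genes called higher included Gpi1, Pfkl, Aldoa, Tpi1, Pkm, Ldha and Slc16a3 of glycolysis and lactate handling. Also among them were Tkt and Rpia of the pentose phosphate pathway and Bnip3, P4ha1 and Egln3 of the hypoxia genes. Gapdh and Eno1 of lower glycolysis were not called. Hif1a, Vegfa, Pgd and Eno3 were lower. On scaled library sizes, the 37 genes together took 1.45%, 1.27% and 1.22% of gene counts with Activin and 0.941%, 0.992% and 0.96% with SB. With control siRNA alone they took 1.24%, 1.14% and 0.94%, replicate 3 being as low as the SB libraries.

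**Figure D2:**
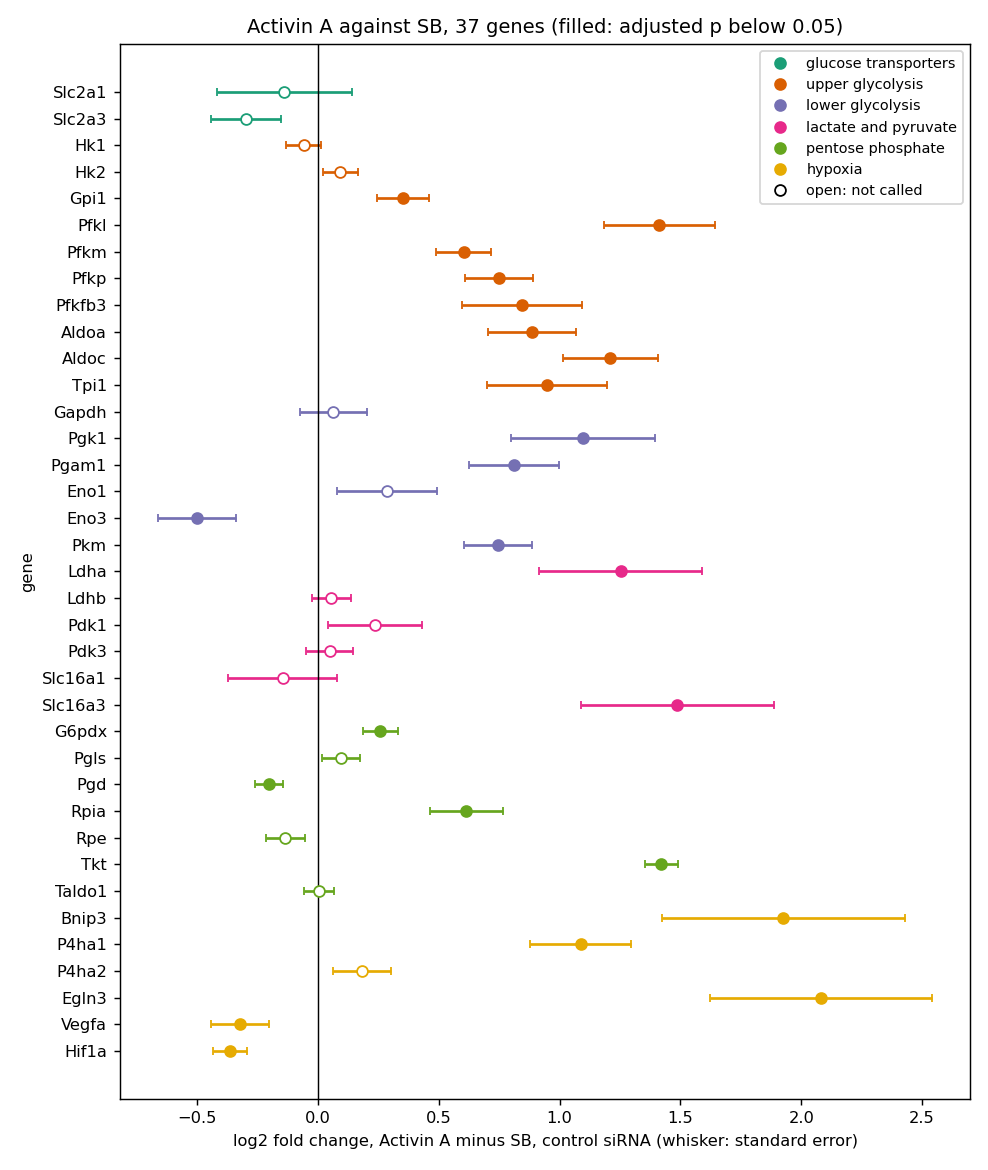
Log2 fold change of each of the 37 genes, Activin minus SB with control siRNA (3 libraries each), with the standard error of the fit as a whisker, and filled points for an adjusted p below 0.05. The largest value is that of Egln3 at 2.08, and the 4 filled points left of 0 are Eno3, Pgd, Vegfa and Hif1a.

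Cell type markers were read in this comparison too, in which 38.0% of all genes were called. Of 12 pluripotent cell markers 8 were called higher with Activin and 2 lower, and their summed level was 5182 to 5613 CPM with Activin and 3442 to 3856 with SB, none of the 12 being at 0 throughout either group. Of 9 trophoblast markers tested 1 was higher and 4 were lower, with sums of 692.2 to 718.6 and 1661 to 1962 CPM. Of 7 mesendoderm markers 5 were higher and 0 lower, with sums of 40.08 to 53.9 and 13.01 to 15.89 CPM. Eomes is on both the trophoblast and the mesendoderm list, so these 2 lists are not independent. Of 9 neuroectoderm markers 1 was higher and 4 were lower (193.6 to 203.8 and 214.3 to 243.9 CPM), of 9 extraembryonic endoderm markers 3 and 2 (221.3 to 293.7 and 265.8 to 332.97 CPM), and of 9 fibroblast markers 3 and 2 (2079 to 2182 and 2546 to 2614 CPM). Of 6 erythroid markers 4 were at 0 throughout each of the 2 groups, as were 1 fibroblast marker with Activin and 1 extraembryonic endoderm marker with SB. Mitochondrial transcripts were not analysed here. The part of these lists in the results below was not tested, and in these bulk samples fewer cells of a type and less RNA per cell cannot be told apart.

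Neither glucose transporter was called. Slc2a1, the GLUT1 transporter, was at 1423, 1306 and 718 CPM with control siRNA alone, 1335, 1064 and 986 with Activin and 1187, 1374 and 1168 with SB. The 3 groups overlapped, and the difference of Activin from SB was -0.14 ± 0.28 on the log2 scale (edgeR adjusted p = 0.731). Slc2a3, the GLUT3 transporter, was lower in every Activin library than in every SB library, at -0.30 ± 0.14, and was not called (edgeR adjusted p = 0.128). It was called lower under 3 alternatives (edgeR adjusted p = 0.0208 to 0.0248): the replicate block, the 6 libraries fitted alone, and the fit without the 3 libraries that stand apart.

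Of the 10 upper glycolysis genes, 8 were called higher with Activin than with SB and 0 lower. The 2 without a call were the hexokinases. Hk2, a hexokinase, was at 273, 235 and 280.4 CPM with control siRNA alone, 274, 255 and 245 with Activin and 239.8, 244 and 242 with SB. Every Activin library was above every SB library, but by a small margin, 0.09 ± 0.07 on the log2 scale (edgeR adjusted p = 0.339). Hk1 was not called either (log2 fold change -0.06). Pfkl, the liver-type phosphofructokinase, was at 386, 329 and 248 CPM with control siRNA alone, 527, 449.8 and 425 with Activin and 183, 176 and 167 with SB. The Activin libraries were all above the untreated ones and the SB libraries all below them, and Activin exceeded SB by 1.41 ± 0.23 on the log2 scale (edgeR adjusted p = 0.000611). Pfkm, the muscle type, was at 117, 102 and 87.9 CPM with control siRNA alone, 124, 127 and 129 with Activin and 79.7, 87.8 and 82.6 with SB. Its groups also separated in that order, with 0.60 ± 0.11 on the log2 scale (edgeR adjusted p = 0.000496). Pfkp, the platelet type, was at 233, 202 and 175 CPM with control siRNA alone, 281, 232 and 206 with Activin and 153, 125 and 150.1 with SB. SB lay below both other groups, while Activin and untreated libraries overlapped, and Activin exceeded SB by 0.75 ± 0.14 on the log2 scale (edgeR adjusted p = 0.000849). All 3 phosphofructokinase genes were called, Pfkl with the largest value.

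Pfkfb3 makes the sugar bisphosphate that activates phosphofructokinase. It was at 13.0, 14.1 and 14.0 CPM with control siRNA alone, 21.9, 22.4 and 17.97 with Activin and 11.2, 13.0 and 10.4 with SB. Activin stood above both other groups, which overlapped, and exceeded SB by 0.84 ± 0.25 on the log2 scale (edgeR adjusted p = 0.0157). This call was lost in 3 of the 6 fits that left out 1 library (edgeR adjusted p up to 0.0599): without control siRNA with Activin replicate 1, or without SB replicate 1 or 3. Aldoa, the main aldolase, was at 1906, 1706 and 1285 CPM with control siRNA alone, 2398, 1999 and 1899.9 with Activin and 1094, 1152 and 1161 with SB. It had the most counts per length of the 37 genes, and Activin exceeded SB by 0.89 ± 0.18 on the log2 scale (edgeR adjusted p = 0.00264). Aldoc, the brain-type aldolase, was at 51.7, 47.8 and 35.9 CPM with control siRNA alone, 79.2, 69.6 and 57.7 with Activin and 28.3, 33.3 and 27.6 with SB. Its 3 groups did not overlap, and the difference was 1.21 ± 0.20 on the log2 scale (edgeR adjusted p = 0.000367). Tpi1, triosephosphate isomerase, was at 316, 289 and 184 CPM with control siRNA alone, 435, 357 and 361 with Activin and 198, 191 and 209 with SB. Untreated replicate 3 fell below the SB libraries while the other 2 untreated libraries lay between the groups, and Activin exceeded SB by 0.95 ± 0.25 on the log2 scale (edgeR adjusted p = 0.0117). Gpi1, glucose-6-phosphate isomerase, ranged from 572.1 to 667.6 CPM with Activin and from 472.4 to 494.9 with SB (log2 fold change 0.35 ± 0.11, edgeR adjusted p = 0.0175). Its call was lost without control siRNA with Activin replicate 1 or without SB replicate 1 or 3 (edgeR adjusted p of 0.0559 to 0.0829).

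In lower glycolysis 3 of 6 genes were higher with Activin than with SB and 1 was lower. Pkm, pyruvate kinase, was at 1755, 1703 and 1291 CPM with control siRNA alone, 2259, 2017 and 2018 with Activin and 1232, 1284 and 1241 with SB. The 3 groups did not overlap, and Activin exceeded SB by 0.74 ± 0.14 on the log2 scale (edgeR adjusted p = 0.00105). Pgk1, phosphoglycerate kinase, was at 25.0, 21.6 and 16.3 CPM with control siRNA alone, 38.3, 33.2 and 24.5 with Activin and 16.1, 14.68 and 14.1 with SB. Pgam1, phosphoglycerate mutase, was at 11.1, 9.78 and 7.86 CPM with control siRNA alone, 14.6, 11.6 and 10.5 with Activin and 8.72, 6.29 and 5.87 with SB. In both genes every Activin library was above every SB library, at 1.09 ± 0.30 on the log2 scale (edgeR adjusted p = 0.0124) and 0.81 ± 0.19 (edgeR adjusted p = 0.00178), with the shared sequence given above. Eno3, the muscle enolase, was at 12.3, 9.64 and 12.9 CPM with control siRNA alone, 10.9, 10.0 and 10.4 with Activin and 19.0, 14.4 and 11.0 with SB. It was the 1 lower glycolysis gene higher with SB (log2 fold change -0.50 ± 0.16, edgeR adjusted p = 0.0181), and its call was lost without SB replicate 1 or without control siRNA with Activin replicate 2 or 3 (edgeR adjusted p of 0.053 to 0.173). Gapdh (log2 fold change 0.06) and Eno1 (log2 fold change 0.28), both with most of their sequence shared, were not called. Eno1b, the near-copy with more counts, was at 161, 140.2 and 134 CPM with Activin and 115, 113 and 111 with SB (log2 fold change 0.36 ± 0.10, edgeR adjusted p = 0.00745).

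Of the 6 lactate and pyruvate genes, Ldha and Slc16a3 were called higher with Activin than with SB and 0 were called lower. Ldha, the lactate dehydrogenase A subunit, was at 475, 395 and 240.4 CPM with control siRNA alone, 721, 589 and 552 with Activin and 276, 240.0 and 265 with SB. The Activin libraries lay above all 6 others, untreated replicate 3 lay with the SB libraries, and Activin exceeded SB by 1.25 ± 0.34 on the log2 scale (edgeR adjusted p = 0.0136). Ldhb, the B subunit, was between 205.8 and 244.4 CPM in the 6 Activin and SB libraries and was not called (log2 fold change 0.06). Slc16a3, the MCT4 lactate exporter, was at 145, 119 and 62.3 CPM with control siRNA alone, 211, 166 and 165 with Activin and 69.8, 66.6 and 57.0 with SB. Activin exceeded SB by 1.49 ± 0.40 on the log2 scale (edgeR adjusted p = 0.0133). Slc16a1, the MCT1 carrier, ranged from 150.8 to 169.8 CPM with Activin and from 163.5 to 186.2 with SB and was not called (log2 fold change -0.15), except in a fit of these 6 libraries alone, where it was lower (edgeR adjusted p = 0.0416). Pdk1, a kinase that inhibits pyruvate dehydrogenase, was at 441, 409.9 and 247 CPM with control siRNA alone, 498, 472 and 438 with Activin and 363, 460.2 and 372 with SB. The Activin and SB libraries overlapped, at 0.24 ± 0.19 on the log2 scale (edgeR adjusted p = 0.374). Pdk1 was called higher with Activin with the 6 libraries fitted alone and in a fit without the 3 libraries that stand apart (edgeR adjusted p of 0.015 to 0.0292). Pdk3, a related kinase, was not called (log2 fold change 0.05).

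Of the 4 non-oxidative genes, Tkt and Rpia were higher with Activin than with SB, and of the 3 oxidative genes G6pdx was higher and Pgd lower. Tkt, transketolase, was at 819, 803 and 794 CPM with control siRNA alone, 1112, 1029 and 1087 with Activin and 395, 401 and 410.2 with SB. The SB libraries spanned 395.4 to 410.2 CPM, the untreated ones 794.5 to 819 and the Activin ones 1028.9 to 1112.3, with no overlap. Activin exceeded SB by 1.42 ± 0.07 on the log2 scale (edgeR adjusted p = 7.15e-12), the smallest p of the 37 genes, and SD over the 3 libraries was 12.5 CPM untreated, 42.8 with Activin and 7.45 with SB. Rpia, ribose-phosphate isomerase, was at 7.80, 8.26 and 9.66 CPM with control siRNA alone, 9.63, 9.30 and 8.92 with Activin and 5.96, 5.06 and 7.16 with SB. Its SB libraries were below the other 6, and Activin exceeded SB by 0.61 ± 0.15 on the log2 scale (edgeR adjusted p = 0.0029). The changes of the oxidative genes were smaller. G6pdx, the entry enzyme, rose by 0.26 ± 0.07 on the log2 scale (edgeR adjusted p = 0.00752), and Pgd, phosphogluconate dehydrogenase, was at -0.20 ± 0.06 (edgeR adjusted p = 0.0103). The call of G6pdx was lost without control siRNA with Activin replicate 3 (edgeR adjusted p = 0.0507). Pgls (log2 fold change 0.09), Rpe (log2 fold change -0.14) and Taldo1 (log2 fold change 0.01), the lactonase, the epimerase and transaldolase, were not called.

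Of the 6 hypoxia genes, 3 were higher with Activin than with SB and 2, Hif1a and Vegfa, were lower. Egln3, a prolyl hydroxylase that marks hypoxia-inducible factors for destruction, was at 57.2, 50.1 and 24.3 CPM with control siRNA alone, 106, 72.8 and 68.8 with Activin and 20.3, 19.2 and 18.9 with SB. The 3 groups did not overlap, although untreated replicate 3 lay close to the SB libraries. Activin exceeded SB by 2.08 ± 0.46 on the log2 scale (edgeR adjusted p = 0.00468), the largest value of the 37. Bnip3, a mitophagy receptor, was at 31.8, 25.8 and 9.21 CPM with control siRNA alone, 46.3, 36.1 and 32.4 with Activin and 10.5, 9.69 and 10.0 with SB. Untreated replicate 3 lay below all SB libraries and the other 2 well above them, and Activin exceeded SB by 1.93 ± 0.50 on the log2 scale (edgeR adjusted p = 0.0117). P4ha1, a collagen prolyl hydroxylase, was at 91.0, 84.6 and 58.5 CPM with control siRNA alone, 122, 100.01 and 96.5 with Activin and 49.4, 48.2 and 52.4 with SB. Its 3 groups did not overlap, at 1.09 ± 0.21 on the log2 scale (edgeR adjusted p = 0.00155), while its relative P4ha2 was not called (log2 fold change 0.18). Hif1a was at 284, 277 and 306 CPM with control siRNA alone, 249.8, 279 and 277 with Activin and 348, 328 and 359.9 with SB. All 3 SB libraries were above the other 6, so its RNA went the opposite way from Egln3 and Bnip3 (log2 fold change -0.36 ± 0.07, edgeR adjusted p = 0.000356). Vegfa, the angiogenic growth factor, ranged from 83.59 to 97.86 CPM with Activin and from 107.6 to 117.8 with SB (log2 fold change -0.32 ± 0.12, edgeR adjusted p = 0.0432). Its call was lost with no filter and in 5 of the 6 fits that left out 1 library (edgeR adjusted p of 0.0531 to 0.142), the exception being the fit without control siRNA with Activin replicate 1.

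Of the 23 calls, 18 were kept in all 6 fits that left out 1 library, and the count ranged from 19 to 22. The 5 lost at least once were Gpi1, Pfkfb3, Eno3, G6pdx and Vegfa. Groups did not overlap for 20 genes higher and 5 lower with Activin, beside 27.2% and 27.6% of all genes. Without the 3 libraries that stand apart, none of which belongs to these groups, the count was 25. The share of all genes called is not given for these alternative fits.

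**Figure D3:**
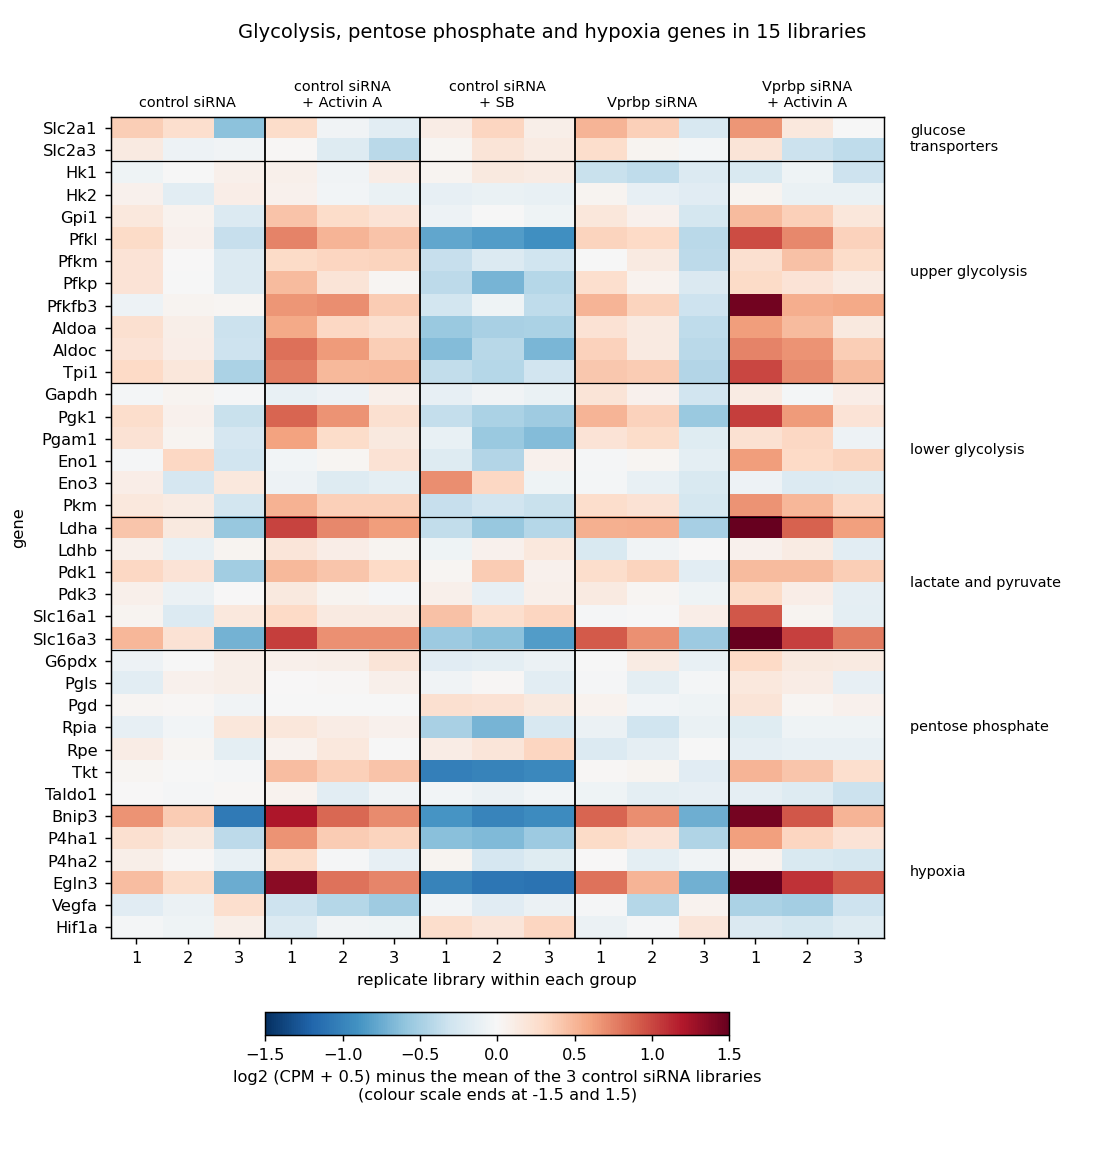
Level of each of the 37 genes in each of the 15 libraries, as log2 of CPM with 0.5 added, minus the mean of the gene over the 3 control siRNA libraries without addition, with the colour scale ending at ±1.5. The Egln3, Bnip3, Slc16a3 and Ldha rows are lowest in the SB libraries and in replicate 3 of both untreated groups.

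SB was then compared with no addition. Of the 37 genes 2 were higher and 6 lower, beside 22.6% of all genes called (11.2% higher and 11.3% lower). The 6 lower genes, by log2 fold change, were Tkt at -1.002 ± 0.07 on the log2 scale (edgeR adjusted p = 2.48e-09), Pfkl at -0.87 ± 0.23, P4ha1 at -0.64 ± 0.21, Aldoc at -0.60 ± 0.20, Pfkp at -0.51 ± 0.14 and Rpia at -0.50 ± 0.15. The 2 higher, on the same scale, were Hif1a at 0.26 ± 0.07 and Pgd at 0.20 ± 0.06. Tkt was the 1 call kept in all 6 fits that left out a library. Aldoc and P4ha1 were each lost in 5 of the 6, Pfkl in 4, Rpia and Pgd in 3, and Pfkp and Hif1a in 2 (edgeR adjusted p of 0.051 to 0.16). The threshold was missed by Egln3 at -1.17 ± 0.47 on the log2 scale (edgeR adjusted p = 0.102), Bnip3 at -1.15 ± 0.52 (edgeR adjusted p = 0.145), Slc16a3 at -0.76 ± 0.40 (edgeR adjusted p = 0.218) and Ldha at -0.51 ± 0.33 (edgeR adjusted p = 0.331). With the replicate block Egln3, Bnip3, Aldoa, Pfkm, Pgam1, Pgk1 and Pkm were called as well, but Slc16a3 and Ldha were not. The limits of that block are given at the end. The median was -0.136 over the 37 genes and -0.0048 over all genes, and 14 genes were lower and 3 higher with no overlap of groups, beside 18.4% and 18.8% of all genes.

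The count varied with single libraries. It was 4 without control siRNA replicate 1 or 2, 5 without SB replicate 1 or 3, 2 without SB replicate 2, and 12 without control siRNA replicate 3. The share of all genes called is not given for these fits. Without the 3 libraries that stand apart 18 genes were called, 3 higher and 15 lower. Of these libraries, control siRNA replicate 3 stood apart in the direction of SB, so its removal by itself tends to widen this difference. The larger count in that fit is therefore no independent support for the calls, and the share of all genes called there is not given. In that fit, by log2 fold change, Egln3 was at -1.46 ± 0.20, Bnip3 at -1.52 ± 0.17, Slc16a3 at -1.04 ± 0.15 and Ldha at -0.74 ± 0.13, all 4 called (edgeR adjusted p of 2.11e-06 to 0.00142). Rpia was no longer called, and Slc16a1 was among the higher genes. Replicate 3 also had the lowest level of the 3 untreated control libraries for 22 of the 37 genes, and replicate 3 of Vprbp siRNA for 27, beside 39.4% and 37.9% of all genes tested. With Activin, replicate 3 was the lowest for 25 genes with control siRNA and for 26 with Vprbp siRNA, beside 32.3% and 37% of all genes. Replicate 1 was the highest of its group for 24 genes in each untreated group, beside 31.2% of all genes with control siRNA and 29.8% with Vprbp siRNA. It was the highest for 27 genes in control siRNA with Activin and 28 in Vprbp siRNA with Activin, beside 34% and 37.9% of all genes. In the SB group the lowest library was spread over the replicates, at 13, 13 and 11 genes. The median SD over replicates, in log2 CPM with 0.5 added, was 0.205 for the 37 genes and 0.135 for all genes in untreated control cells, 0.236 and 0.123 with Vprbp siRNA alone, and 0.08 and 0.103 with SB. The source of this spread was not tested.

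**Figure D4:**
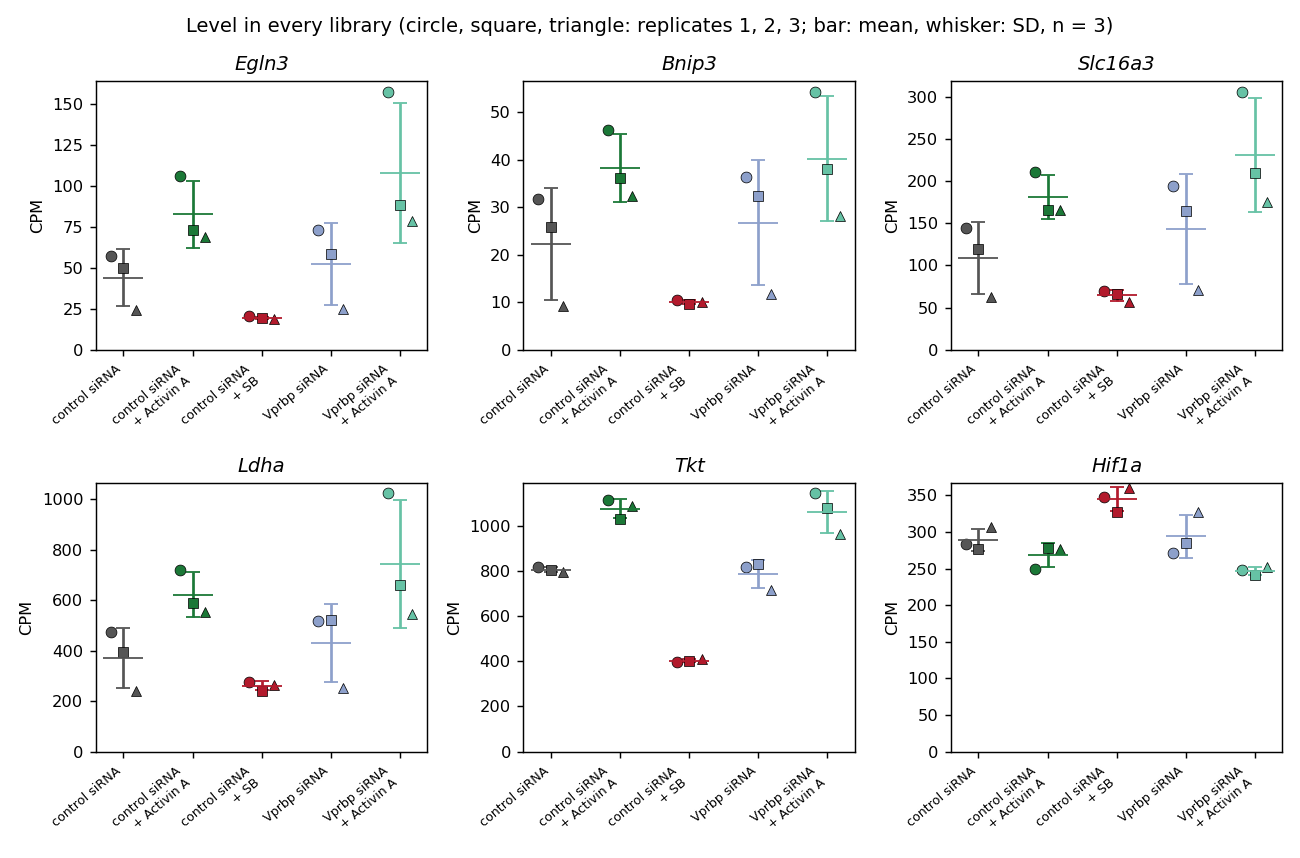
CPM in each library (circle, square and triangle for replicates 1, 2 and 3, with the mean as a bar and the SD over 3 libraries as a whisker) for Egln3, Bnip3, Slc16a3, Ldha, Tkt and Hif1a, by group, on axes from 0. Replicate 3 of both untreated groups sits near the SB libraries for Egln3, Bnip3, Slc16a3 and Ldha, whereas Tkt separates the SB, untreated and Activin libraries with control siRNA without overlap.

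Activin against no addition in control siRNA cells called 1 gene higher and 1 lower of the 37, beside 4.83% of all genes (2.95% higher and 1.88% lower). Tkt was higher by 0.42 ± 0.07 on the log2 scale (edgeR adjusted p = 0.0011) and Vegfa at -0.43 ± 0.12 (edgeR adjusted p = 0.0491), at 108, 114 and 145 CPM untreated and 97.9, 89.8 and 83.6 with Activin. This comparison and that of SB share their 3 untreated libraries. Groups did not overlap for 13 genes higher and 1 lower, beside 14.0% and 13.6% of all genes, and the median was 0.186 against -0.0054 over all genes. Among the 13, Bnip3 was at 0.77 ± 0.46 on the log2 scale (edgeR adjusted p = 0.384), Egln3 at 0.91 ± 0.43 (edgeR adjusted p = 0.262) and Pfkl at 0.54 ± 0.22 (edgeR adjusted p = 0.202). With the replicate block Pfkl was called (edgeR adjusted p = 0.00601), as were Gpi1, Pgk1, Pkm and Aldoc, but Bnip3 and Egln3 were not. Over all genes tested, the pairing behind that block correlated at 0.045, 0.0096 and 0.038 between these groups. Without the 3 libraries that stand apart 6 genes were called, all higher, of which Tkt was also called with them, and Vegfa was at -0.30 ± 0.10 (edgeR adjusted p = 0.0999). Across fits that left out 1 library the count was 3 without control siRNA replicate 1 and 1, Tkt, in each of the other 5. The counts from fits without 1 or 3 libraries have no share of all genes beside them.

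In Vprbp siRNA cells Activin called 2 genes higher and 1 lower, beside 6.12% of all genes (3.65% higher and 2.47% lower). Tkt was higher by 0.43 ± 0.07 on the log2 scale (edgeR adjusted p = 0.000534), Pfkm by 0.40 ± 0.11 (edgeR adjusted p = 0.0475), and Hif1a was at -0.25 ± 0.07 (edgeR adjusted p = 0.036). Tkt alone was called in all 6 fits that left out 1 library, in which the count ran from 1 (without Vprbp siRNA replicate 3 or without Vprbp siRNA with Activin replicate 2) to 4. Pfkm was lost in 5 of the 6 and Hif1a in 3, without Vprbp siRNA with Activin replicate 1 or 2 or without Vprbp siRNA replicate 3 (edgeR adjusted p of 0.0654 to 0.276). Pfkm also lost its call with library totals as the scaling, with no filter on low counts and with only the libraries compared (edgeR adjusted p of 0.0635, 0.0618 and 0.142), and Hif1a with only the libraries compared (edgeR adjusted p = 0.123). With the replicate block, whose limits are given at the end, Aldoa, Aldoc, Egln3, Gpi1, Pfkfb3, Pfkl, Pgk1 and Pkm were called as well. Without the 3 libraries that stand apart, 2 genes were called higher, Tkt at 0.31 ± 0.07 on the log2 scale and Pfkm at 0.30 ± 0.08, and Slc2a3 was lower at -0.51 ± 0.12 (edgeR adjusted p = 0.0293), while Hif1a, at -0.17 ± 0.07, was not called (edgeR adjusted p = 0.184). Groups did not overlap for 12 genes higher and 1 lower, beside 11.2% and 10.2% of all genes. When the Activin effect was averaged over both siRNAs, a comparison added after seeing the data, 8 genes were higher and 2 lower, beside 15.8% of all genes (8.45% higher and 7.40% lower). The 8, by log2 fold change, were Pfkfb3 at 0.66 ± 0.17, Aldoc at 0.58 ± 0.14, Pfkl at 0.57 ± 0.16, Tkt at 0.43 ± 0.05, Pkm at 0.41 ± 0.10, Pfkm at 0.35 ± 0.08, Gpi1 at 0.31 ± 0.08 and G6pdx at 0.16 ± 0.05. Vegfa was at -0.38 ± 0.08 and Hif1a at -0.18 ± 0.05. The median was 0.202 over the 37 genes and -0.0053 over all genes, and the count ran from 7 (without Vprbp siRNA replicate 3) to 15 (without Vprbp siRNA with Activin replicate 3). Of the 10, 6 were kept in all 12 fits that left out 1 library, while Pfkl was lost in 8 of them, G6pdx in 7, Hif1a in 3 and Pfkfb3 in 1. Without the 3 libraries that stand apart 9 genes were called higher and 2 lower, and 8 of the 11 were also called with them. G6pdx and Hif1a were not called there (edgeR adjusted p of 0.104 and 0.103), and Ldha at 0.36 ± 0.09, Tpi1 at 0.28 ± 0.06 and Slc2a3 at -0.36 ± 0.08 were. Pfkl was called at 0.31 ± 0.09. As above, the counts from fits without 1 or 3 libraries have no share of all genes beside them.

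Vprbp siRNA was compared with control siRNA at each Activin state. None of the 37 genes was called in either, beside 0.0411% of all genes called in each (0.0342% higher and 0.00685% lower in each). By unadjusted p below 0.05, 1 of the 37 passed without Activin (8.16% of all genes) and 3 with Activin (10.5%), and DESeq2 called 0 in both. Hk1, a hexokinase, had the smallest p in both. It was at 100.3, 105 and 111 CPM with control siRNA and 83.2, 80.9 and 91.0 with Vprbp siRNA, while with Activin it was at 111.24, 101.37 and 113.39 CPM with control siRNA and 89.44, 100.97 and 85.12 with Vprbp siRNA. In either state all 3 Vprbp siRNA libraries were below all 3 controls, at -0.31 ± 0.07 on the log2 scale (edgeR adjusted p = 0.2) and -0.24 ± 0.07 (edgeR adjusted p = 0.247). Groups did not overlap for 0 genes higher and 2 lower without Activin, beside 6.64% and 5.65% of all genes, and for 2 higher and 3 lower with Activin, beside 8.37% and 9.04%. The medians over the 37 genes were 0.0164 and 0.0344.

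Among the Vprbp siRNA libraries, replicate 3 without Activin and replicate 1 with it stood out for many genes, as counted above. Egln3 was at 73.1, 58.6 and 24.8 CPM with Vprbp siRNA alone and 157, 88.2 and 78.3 with Activin added. Bnip3 was at 36.4, 32.3 and 11.7 CPM with Vprbp siRNA alone and 54.3, 38.1 and 28.3 with Activin added. In both genes replicate 3 without Activin was the lowest, near the SB libraries of control siRNA cells. Slc16a3 was at 194, 165 and 70.4 CPM with Vprbp siRNA alone and 306, 209.8 and 176 with Activin added. Ldha was at 517, 519 and 252 CPM with Vprbp siRNA alone and 1025, 659 and 543 with Activin added. P4ha1 was at 93.4, 88.4 and 55.7 CPM with Vprbp siRNA alone and 118, 96.2 and 88.5 with Activin added. In these 3, replicate 1 with Activin was the highest library of the group, and replicate 3 without Activin the lowest. Tkt was at 815, 830.4 and 714 CPM with Vprbp siRNA alone and 1143, 1078 and 962 with Activin added, and its groups did not overlap. Rpia was at 8.01, 6.83 and 7.91 CPM with Vprbp siRNA alone and 7.50, 8.16 and 8.11 with Activin added. Hif1a was at 271, 284 and 327 CPM with Vprbp siRNA alone and 248, 241 and 253 with Activin added. Rpia overlapped between the groups, while Hif1a was lower in every Activin library than in every untreated one.

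Of the upper glycolysis genes, Pfkl was at 399, 387 and 238 CPM with Vprbp siRNA alone and 622, 521 and 400.2 with Activin added. Pfkm was at 101, 112 and 77.2 CPM with Vprbp siRNA alone and 120.2, 137 and 123 with Activin added. Pfkp was at 241, 210.2 and 174 CPM with Vprbp siRNA alone and 247, 234 and 220.0 with Activin added. All 3 Activin libraries were above all 3 untreated ones for Pfkl and Pfkm, whereas for Pfkp the groups overlapped. Pfkfb3 was at 19.7, 17.3 and 10.9 CPM with Vprbp siRNA alone and 38.0, 20.1 and 20.4 with Activin added, the highest value being replicate 1 with Activin. Aldoa was at 1874, 1763 and 1240.4 CPM with Vprbp siRNA alone and 2494, 2246 and 1788 with Activin added. Aldoc was at 57.0, 49.0 and 33.6 CPM with Vprbp siRNA alone and 75.0, 71.2 and 57.6 with Activin added, and its groups did not overlap. Tpi1 was at 339, 333 and 189 CPM with Vprbp siRNA alone and 511, 419 and 354 with Activin added, likewise without overlap. Hk2 was at 269, 239.6 and 233 CPM with Vprbp siRNA alone and 270.3, 244 and 244 with Activin added, with overlap.

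Of the remaining genes, Pkm was at 1886, 1826 and 1311 CPM with Vprbp siRNA alone and 2509, 2214 and 1942 with Activin added, without overlap. Pgk1 was at 29.5, 26.4 and 13.9 CPM with Vprbp siRNA alone and 42.8, 32.3 and 23.8 with Activin added. Pgam1 was at 11.0, 11.6 and 8.30 CPM with Vprbp siRNA alone and 11.2, 11.8 and 8.94 with Activin added. Eno3 was at 11.3, 10.7 and 9.74 CPM with Vprbp siRNA alone and 10.9, 9.96 and 9.98 with Activin added. These 3 had overlapping groups. Slc2a1 was at 1563, 1408 and 934 CPM with Vprbp siRNA alone and 1743, 1230.2 and 1094 with Activin added, with overlap. Pdk1 was at 426, 448 and 318 CPM with Vprbp siRNA alone and 493, 493 and 459.7 with Activin added, every Activin library being above every other and the difference not called (log2 fold change 0.28 ± 0.19, edgeR adjusted p = 0.485).

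The test of whether the Activin response differed between the siRNAs called 0 of the 37 genes, and 0% of all genes. By unadjusted p below 0.05, 0 of the 37 and 3.54% of all genes passed, DESeq2 called 0 of the 37, and the smallest edgeR adjusted p was 0.999. The difference of the responses was 0.01 ± 0.09 for Tkt, 0.14 ± 0.60 for Egln3 and -0.18 ± 0.65 for Bnip3 on the log2 scale. For Tkt the Activin responses were 0.42 ± 0.07 with control siRNA and 0.43 ± 0.07 with Vprbp siRNA. The 14 of the 37 genes called in none of the 7 comparisons were those not called with Activin against SB. In that comparison 38.0% of all genes were called, and no count over the 7 comparisons was made for all genes.

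Other genes of these pathways were read from lists that hold none of the 37. Of 29 other glycolysis genes tested, 7 were higher and 4 lower with Activin than with SB, among them Pgm2 (1.32 ± 0.28 log2), which encodes a phosphoglucomutase, and the Pfkfb3 relatives Pfkfb2 (-0.58 ± 0.12 log2) and Pfkfb1 (-0.56 ± 0.13 log2). Their median was 0.0328. Of 30 genes of pyruvate oxidation and the TCA cycle, 6 were higher and 3 lower, median 0.0492, with, by log2 fold change, the pyruvate dehydrogenase phosphatase Pdp1 at 1.12 ± 0.14, Idh3a, an isocitrate dehydrogenase subunit, at 0.45 ± 0.06, and the kinases Pdk4 and Pdk2 at 0.66 ± 0.13 and 0.50 ± 0.12. Of 14 genes linked to the pentose phosphate pathway, 4 were higher and 1 lower, including the phosphoribosyl pyrophosphate synthetases Prps2 (0.66 ± 0.09 log2) and Prps1 (0.32 ± 0.08 log2). Of 36 nuclear genes of oxidative phosphorylation, 3 were higher and 3 lower, median 0.0131. Ndufb10, a complex I subunit, was at -0.28 ± 0.10 on the log2 scale. Each list stands beside the 38.0% of all genes called in this comparison.

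Of 34 other hypoxia targets, 13 were higher and 2 lower with Activin than with SB (44.1% called), with a median of 0.26. Over all genes 38.0% were called in this comparison, 19.0% higher and 19.0% lower. Bhlhe40, a transcriptional repressor, was at 1.77 ± 0.19 on the log2 scale (edgeR adjusted p = 1.75e-05), the histone demethylase gene Kdm3a at 0.69 ± 0.08, the MYC antagonist gene Mxi1 at 0.69 ± 0.13 and the cytokine gene Mif at 0.38 ± 0.08. SB against no addition called 1 of them higher, Ndrg1 at 1.39 ± 0.32, and 7 lower, beside 22.6% of all genes (11.2% higher and 11.3% lower). Of 15 regulators of the hypoxia pathway, 3 were higher and 1 lower with Activin than with SB (26.7% called, below the share of all genes). By log2 fold change, Epas1, which encodes HIF-2 alpha, was at 0.52 ± 0.14, Hif3a at 0.52 ± 0.10 and the HIF partner Arnt at 0.26 ± 0.08. Vhl, the ubiquitin ligase subunit that binds hydroxylated HIF, was at -0.37 ± 0.10. Of 25 genes around MYC, mTOR and Lin28, 9 were higher and 5 lower in the same comparison (56.0% called). Lin28a and Esrrb are also on the pluripotent cell marker list, so that list and this one are not independent. Myc, a transcription factor known to drive glycolytic genes, was at 46.2, 39.0 and 31.2 CPM untreated, 64.2, 64.1 and 69.9 with Activin and 12.6, 14.8 and 13.2 with SB. Its groups did not overlap, at 2.29 ± 0.15 on the log2 scale (edgeR adjusted p = 3.04e-09), while its partner Max was at 0.43 ± 0.06 and Lin28a at -0.84 ± 0.08. The part of Myc or of the hypoxia pathway in the values of the 37 genes was not tested.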

How the data were processed

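The authors deposited 1 table of fragment counts per gene symbol, without normalization, for 15 libraries. Per the submitters' processing notes, HTSeq 0.6.1p1 and mm10 were used. No source used here names the aligner, annotation or strand setting, so reads from overlapping or antisense genes may be mixed. The 5 tally rows, 39.6% to 44.4% of fragments, were left out, leaving 11.1 to 15.5 M counts per library over 24451 genes. Groups and replicate numbers come from the sample titles.

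Genes passing edgeR's filterByExpr (minimum count 10) numbered 14600. Counts were scaled by TMM (factors 0.985 to 1.02) and tested with edgeR 4.0.16 in R 4.3.3, by quasi-likelihood with robust fitting over all 15 libraries and 1 mean per group, with Benjamini-Hochberg adjustment over all genes tested and a threshold of 0.05. Errors of log2 fold changes are standard errors of the fit. The fit was also run on simulated counts, drawn independently for each library with no shared replicate order and no libraries that stand apart. That run cannot show how the fit deals with those features. Alternatives were RLE size factors, library totals, no filter, 1 CPM in 3 libraries, DESeq2 1.42.0, a replicate block, only the libraries compared, and leaving out each library. Fits without the 3 libraries that stand apart and the averaged Activin effect were added after seeing the data.

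The 37 genes and the other lists were chosen with earlier results of these data known. Values in every library are given for genes called in a comparison with an absolute log2 fold change of at least 0.5 there, and for Hif1a, Slc2a1, Hk2, Ldha and Pdk1. From the other lists, up to 4 called genes with the smallest p for Activin against SB are named, and up to 2 called in other comparisons. Some genes that this rule names are not reported here. As a check of pairing, the deviations from the group mean of libraries with the same number correlated at 0.12, 0.20 and 0.37 between the 2 untreated groups. For every other 2 groups at least 1 of the 3 correlations was under 0.1. Replicates differed beyond sampling noise in each group (chi-square per degree of freedom 2.81 to 16.7). Promoters are from RefSeq on GRCm38.p6, and gene lengths and shared 50-base windows from GENCODE M21 on GRCm38.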

Additional observations from a re-analysis of the deposited data

How the results depend on the processing

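No called value of the 37 genes changed sign under any alternative run. The 23 calls of Activin against SB became 19 to 22 across fits without 1 library, 24 with the replicate block, 22 with no filter, 26 with only the libraries compared and 25 without the 3 libraries that stand apart. For SB against no addition the 8 calls became 15 with the replicate block, 18 without those 3 libraries, and 2 to 12 without 1 library. Of those 3, control siRNA replicate 3 lay toward SB, so leaving it out tends to widen this difference. Aldoc and P4ha1 lost their SB call with library totals and with no filter. With only the libraries compared Rpia lost its call, while Aldoa, Pfkm, Pgk1, Pkm and Slc16a1 gained 1 each. For Activin with control siRNA the 2 calls became 1 with no filter, 7 with the block, 4 by DESeq2, 6 without the 3 libraries, and 1 to 3 without 1 library. For Activin with Vprbp siRNA the 3 calls became 11 with the block, 7 by DESeq2, 1 with only the libraries compared, and 1 to 4 without 1 library. The averaged Activin effect went from 10 calls to 21 with the block and 7 to 15 without 1 library. Counts for Vprbp siRNA and for the difference of responses were 0 under every alternative run. These counts, and those of the same fits above, stand without the share of all genes called in each fit. A rise or fall may therefore hold over all genes rather than for the 37 in particular. The cause of these changes was not tested. Over all genes tested, the pairing behind the block has support in the correlations between the 2 untreated groups only. Among the 37 genes, however, replicate 1 was most often the highest and replicate 3 most often the lowest in every group but SB. The main test, without the block, takes no account of such a shared replicate order. Values of Gapdh, Eno1, Pgk1 and Pgam1 are limited by shared sequence, and those of Rpia, Pfkfb3, Eno3, Gapdh, Pgam1 and Eno1 by few counts.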
